A study of Canis lupus familiaris with 51 samples.

Results

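The genes that load and start the replicative helicase were measured in 51 canine cutaneous mast cell tumors (MCTs), a skin cancer of the dog, on 51 arrays, 1 per tumor. Every probe whose gene name in the scanner files was MCM2, MCM3, MCM4, MCM5, MCM6, MCM7, CDC6, CDC45L, FEN1 or PCNA was taken. This gave 16 probes for 10 genes out of 43603 non-control probes. The tumors arose spontaneously in pet dogs and a piece from the centre of each mass was kept in RNAlater at surgery, so tumor cells, stroma and infiltrating cells were profiled together. The labels gave the sex of 49 dogs (30 female and 19 male), an age of 3 to 14 years for 49 dogs, and the breed, which included 9 Boxers, 9 Labrador Retrievers and 14 Crossbred dogs. Treatment and histological class were not in the labels, and classes were not compared here.

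DNA replication starts from origins that are prepared before S phase. The origin recognition complex, CDC6 and CDT1 load the ring formed by MCM2 to MCM7 onto DNA, and CDC45 with the GINS complex then turns the loaded ring into the active helicase. PCNA is the sliding clamp that holds polymerases on the template, and FEN1 removes the flaps of Okazaki fragments. Transcripts of these genes are known to be more abundant in cycling than in resting cells. In bulk tissue, fewer cycling cells and less of the transcript per cell cannot be told apart.

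The probe labelled MCM2 did not carry an MCM2 description. The scanner files gave its gene name as MCM2 but described its target, XM_861497, as similar to cyclin L1, a partner of splicing-associated kinases, and placed it at chr23:53692409-53692468, minus strand. In the RefSeq gene table of a later dog assembly CCNL1 lies on the chromosome that this probe was assigned to and MCM2 lies on a different chromosome. No other probe on the array was described as MCM2. The probe sequence held the pentamer TCTCG, shown in capitals below, 3 times. The pentamer was picked from this sequence because it recurs there, so its counts elsewhere are a description only. On both strands of all 43603 probe sequences of 60 bases, 4.36% held at least 1 copy, and 0.00229%, which is this probe alone, held 3 or more. The sequences of 4 probes of MCM3, MCM5 and CDC45L are printed with it in lower case, because these genes are set against it throughout.
Probe labelled MCM2: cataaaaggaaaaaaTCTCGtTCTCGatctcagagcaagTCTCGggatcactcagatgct
MCM3 probe 1: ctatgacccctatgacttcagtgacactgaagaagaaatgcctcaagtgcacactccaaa
MCM3 probe 2: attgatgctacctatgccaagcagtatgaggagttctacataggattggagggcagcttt
MCM5: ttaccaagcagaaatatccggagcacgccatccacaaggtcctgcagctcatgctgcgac
CDC45L: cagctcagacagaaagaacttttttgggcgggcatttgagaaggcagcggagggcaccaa

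The other 15 probes were described in the files as the gene they were named after. Positions are those of the scanner files, which do not name their genome build, and exons or UTRs were not annotated here. MCM3 probe 1 lay at chr12:22927867-22928353 and MCM3 probe 2 at chr12:22944059-22944118. MCM5 lay at chr10:31792789-31793773 and CDC45L at chr26:32777983-32780405. The spans of MCM3 probe 1 (487 bases), MCM5 (985 bases) and CDC45L (2423 bases) exceeded the 60 bases of a probe. The remaining probes were on chromosome 29 for MCM4, 19 for MCM6, 6 for MCM7, 9 for CDC6, 18 for FEN1 and 24 for PCNA. The 2 MCM7 probes shared 56 of 60 bases and so were not independent measurements. Where a gene had 2 probes, probe 1 was the brighter one.

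Detection differed among the genes. On each array the scanner software called between 59.4% and 74.8% of spots well above background, with a median of 68.7%. Of the 16 probes, 12 were well above background in all 51 tumors. CDC45L was so in 43 tumors, CDC6 probe 1 in 32, MCM3 probe 2 in 28 and CDC6 probe 2 in 16, so low values of these 4 probes are bounds rather than levels. Pearson r over all probes ran from 0.91 to 0.99 for the 1275 pairs of arrays, and 0 pairs held identical values.

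Among the helicase ring genes, MCM5 varied most. All levels below are log2 intensities after quantile normalization, and they rank tumors within a probe but do not rank probes against each other. MCM5 ran from 6.67 to 10.86 with a median of 8.69 and an SD of 1.14 (n = 51), an 18.2-fold range with every tumor well above background. The highest value was in case T9, followed closely by LM0 and T80, and the lowest was in case T55. MCM3 probe 1 ran from 5.42 to 8.88 with a median of 6.62 and an SD of 0.82, an 11.0-fold range, again highest in T9. MCM4 probe 1 had a median of 9.00 between 8.32 and 10.48 (SD 0.50), MCM6 probe 1 a median of 11.77 between 10.90 and 13.19 (SD 0.51), and MCM7 probe 1 a median of 12.71 between 11.89 and 14.77 (SD 0.53). These 3 ring genes spread over 4.48-fold, 4.89-fold and 7.40-fold, less than MCM5. The probe labelled MCM2 had a median of 8.60 between 7.53 and 10.17 (SD 0.48), with the highest value in T57 and the lowest in T53.

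With the processed signals the loader and the helicase activator had the widest spread of the 10 genes. CDC6 probe 1 ran from 2.06 to 8.37 with a median of 4.64 and an SD of 1.53, larger than the SD of 96.1% of all probes. Its highest values were in LM0 and T9, and 19 tumors were not well above background. CDC45L ran from 3.60 to 8.79 with a median of 5.57 and an SD of 1.36, with LM0 and T9 again at the top and 8 tumors not well above background. With normexp background correction and an offset of 50 the SD fell to 0.48 for CDC6 probe 1 and 0.64 for CDC45L, against 0.87 for MCM5. The clamp and the flap nuclease were measurable in all tumors. PCNA probe 1 ran from 11.17 to 13.95 (median 11.88, SD 0.61) with its highest value in T57, and FEN1 ran from 10.55 to 12.68 (median 11.21, SD 0.53) with its highest value in T80. The median SD of the 16 probes was 0.59 against 0.51 over all probes.

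**Figure D1:**
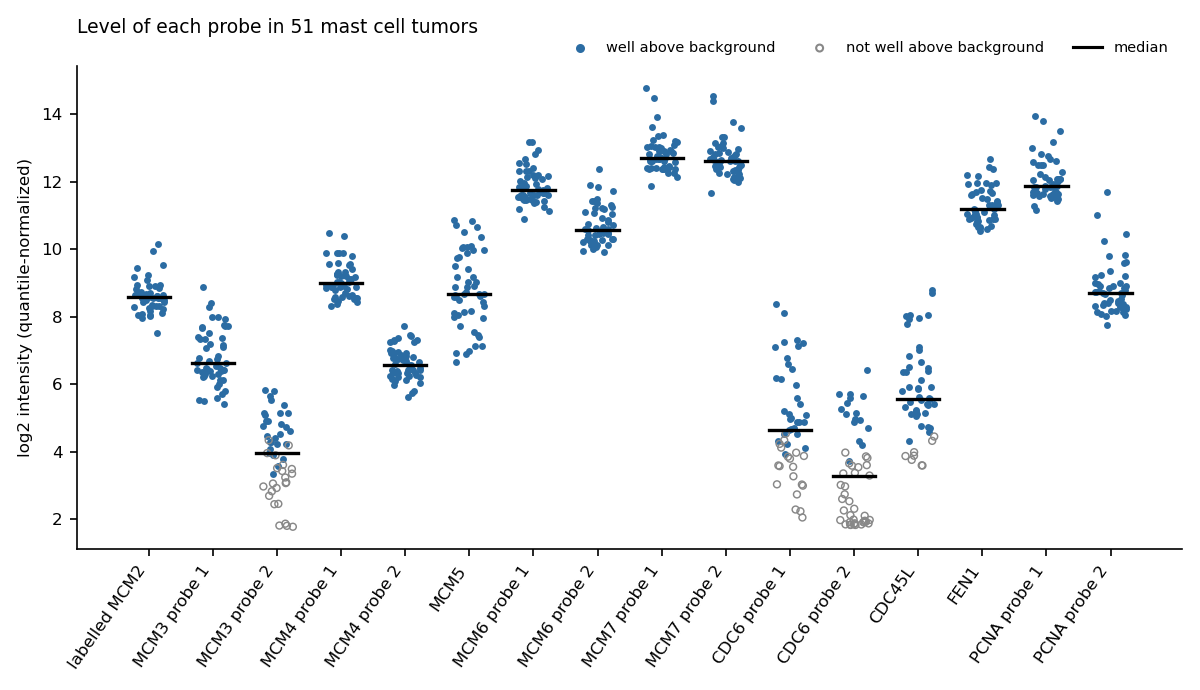
Log2 intensity (vertical axis) of each of the 16 probes in 51 tumors. Each point is 1 tumor, open points were not well above background and black lines are medians. CDC6, CDC45L and MCM5 spread over the widest range, and CDC6 probe 2 was well above background in 16 tumors.

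The same few tumors headed most of the genes. With 1 probe per gene, case T9 was among the 5 highest tumors for 9 of the 9 genes other than the one labelled MCM2, LM0 for 8, T80 and T115 for 7 each, and T49 and T114 for 4 each. These 6 tumors came from male dogs, and the next, T57 with 2 genes, came from a female. At the other end, T62 was among the 5 lowest tumors for 5 of the 9 genes. The mean z score of the 9 genes ran from -1.23 in T62 to 2.29 in T9 with a median of -0.20, and 19 tumors were above 0. The widest gap between neighbouring tumors was 14.7% of this range and set apart the top 2 tumors, T9 and LM0. By this score T73 and T57, both from female dogs, were 5th and 6th, ahead of T114 (7th) and T49 (9th). Gaps along this 1 score cannot show whether the tumors form groups, since groups can overlap on it. For the probe labelled MCM2 the same tumors ranked elsewhere: T9 was 3rd, LM0 10th, T80 22nd and T115 32nd of 51.

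Levels of the 9 genes rose and fell together over the 51 tumors. Using the brighter probe of each gene, all 36 pairs among the 9 genes were positively correlated, with Pearson r from 0.52 to 0.94 (median 0.80) and Spearman rho from 0.45 to 0.94. The closest pairs were CDC45L with CDC6 (r = 0.94, rho = 0.94) and CDC45L with MCM5 (r = 0.93, rho = 0.93), and MCM3 with CDC6 followed at r = 0.90. In 2-sided permutation tests with 100000 permutations, the largest p of r over these 36 pairs was 0.00034. It belonged to MCM7 with PCNA. For CDC45L with CDC6 the p was 1e-05, the smallest these permutations can give. When the 2 tumors farthest from the median of the first gene of a pair were left out, r over the 36 pairs still ran from 0.45 to 0.93. In all, 45 pairs were computed among the 10 genes, and p-values are given unadjusted because the genes were chosen as a group.

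MCM7 was the most loosely tied of the ring genes. Its r with the other 8 genes ran from 0.52 to 0.74 (median 0.64), against 0.70 to 0.94 (median 0.84) for the 28 pairs among those 8. MCM7 stood highest in LM0, at 14.77, and in T73, at 14.48, which was 5th by the mean of the 9 genes. Probes of the same gene tracked each other, with r of 0.78 for MCM4, 0.86 for CDC6, 0.89 for MCM3, 0.92 for PCNA and 0.95 for MCM6. The r of 0.99 for MCM7 came from overlapping probes.

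The probe labelled MCM2 stood mostly outside this pattern. With the brighter probes of the other 9 genes its r ran from 0.17 to 0.44 (median 0.21) and its rho from 0.03 to 0.30. With the dimmer probes r ran from -0.01 for MCM4 probe 2 to 0.58 for PCNA probe 2. Among the 9 genes themselves, r with the dimmer probes went down to 0.29, for MCM4 probe 2 with MCM7 probe 2. The r of 0.44 was with PCNA probe 1 (95% interval 0.19 to 0.64, permutation p = 0.00157). It went with a rho of 0.18 (permutation p = 0.209). It fell to 0.16 without T57 and T114, the 2 tumors in which the probe labelled MCM2 was highest. For MCM3, which pairs with the other ring genes at 0.65 to 0.88, r with the probe labelled MCM2 was 0.21 (95% interval -0.07 to 0.46, permutation p = 0.142). For CDC45L it was 0.20 (95% interval -0.08 to 0.45, permutation p = 0.159). The intervals of r for MCM3 and for CDC45L with this probe end below that of MCM3 with CDC45L (0.76 to 0.92). Such a separation does not hold for every pair. The interval of PCNA with this probe (0.19 to 0.64) overlaps that of MCM7 with PCNA (0.29 to 0.70). The 5 named genes closest to the probe labelled MCM2, by Pearson r among 29918 probes well above background on at least 26 arrays, were IWS1 (0.73), FUBP3 (0.72), MAPK8 (0.71), IL23A (0.71) and CCDC100 (0.71).

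**Figure D2:**
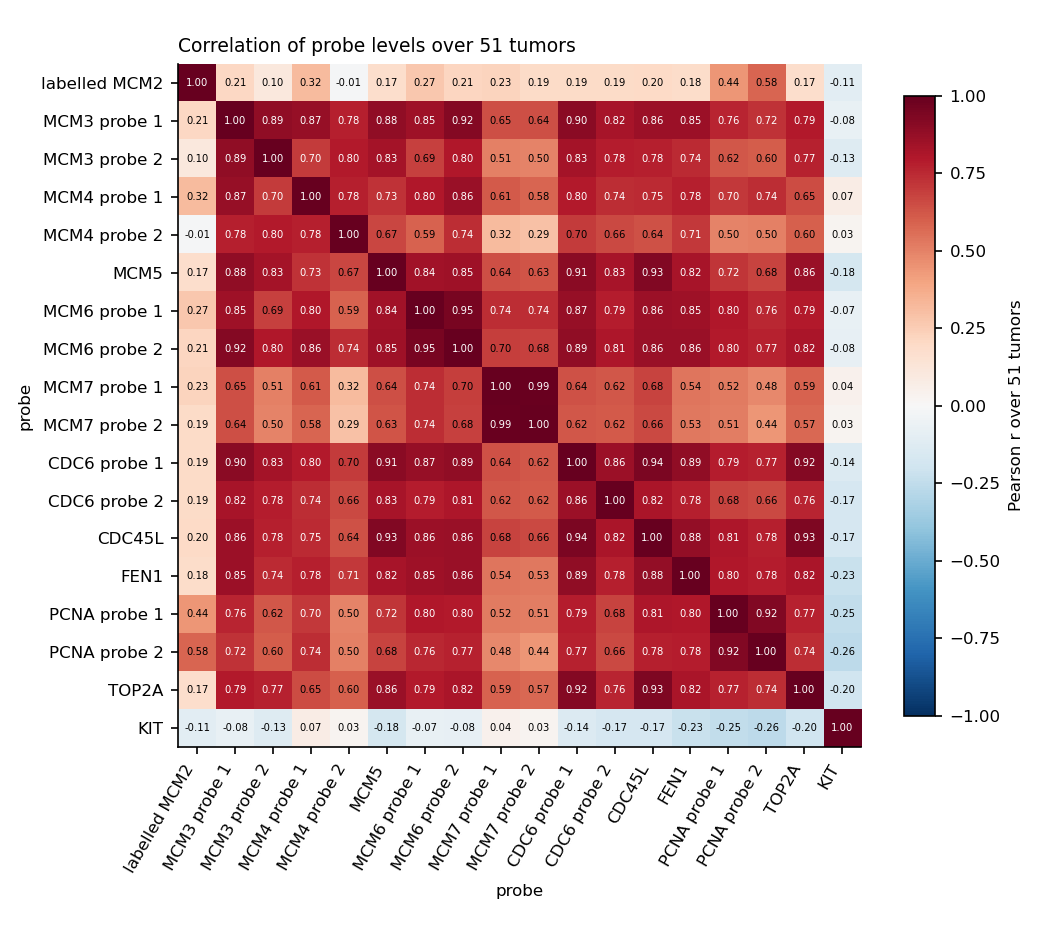
Pearson r over 51 tumors for each pair of the 16 probes, TOP2A and KIT, on a color scale from -1 to 1. Probes of MCM3 to MCM7, CDC6, CDC45L, FEN1 and PCNA form a block with TOP2A, loosest at 0.32 and 0.29 for MCM4 probe 2 with MCM7 probes 1 and 2. The rows of the probe labelled MCM2 and of KIT are paler, with 0.44 and 0.58 for the probe labelled MCM2 with PCNA probes 1 and 2.

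The proliferation marker TOP2A, the topoisomerase that untangles chromosomes before mitosis, was used as an anchor because MKI67 had no probe under that name. TOP2A ran from 1.86 to 8.48 (median 4.95, SD 1.49, n = 51), highest in LM0 and T9, and was well above background in 39 tumors. A slope on TOP2A was fitted to every probe with limma and called at a Benjamini-Hochberg adjusted p under 0.01 over 43602 probes. Over the whole array 3.71% of probes rose with TOP2A and 3.36% fell. Of the 16 probes, 15 rose and 0 fell, and the median slope of the 16 was 0.31 against -0.01 over all probes.

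The size of the slopes, and their order, depended on the background correction. With the processed signals, a rise of 1 log2 unit in TOP2A went with 0.94 ± 0.06 (SE) for CDC6 probe 1 (limma adjusted p = 6.89e-19) and 0.85 ± 0.05 for CDC45L (limma adjusted p = 1.4e-20). MCM5 followed at 0.66 ± 0.05 and MCM3 probe 1 at 0.43 ± 0.05 (limma adjusted p = 5.19e-14 and 6.83e-10). In the same fit slopes were shallower for PCNA (0.32 ± 0.04), FEN1 (0.29 ± 0.03), MCM6 (0.27 ± 0.03), MCM4 (0.22 ± 0.04) and MCM7 (0.21 ± 0.04), each with the brighter probe. Their 95% intervals lay apart from that of MCM5 (0.55 to 0.77), since the highest of them, that of PCNA, ended at 0.39. The probe labelled MCM2 had a slope of 0.06 ± 0.04 (95% interval -0.03 to 0.14, limma adjusted p = 0.452), and this interval ended below the slopes of the other 15 probes, the lowest of which was 0.19. It did overlap the 95% intervals of MCM4 probe 2 (0.12 to 0.27), MCM7 probe 1 (0.13 to 0.29) and MCM7 probe 2 (0.12 to 0.30). With normexp background correction of the raw signals the slopes were 1.41 for MCM5, 1.19 for CDC45L, 0.97 for PCNA, 0.85 for CDC6, 0.78 for FEN1 and MCM6, 0.73 for MCM3, 0.71 for MCM7 and 0.59 for MCM4, each with probe 1. The slopes of MCM5, PCNA, FEN1, MCM6, MCM3, MCM7 and MCM4 were thus over 1.5 times larger than in the first fit, and MCM5 stood first. CDC6 probe 2 went from 0.71 to 0.37 and MCM3 probe 2 from 0.55 to 0.26. The normexp fit adds an offset of 50 to every signal, TOP2A included, which narrows log2 differences at low signal. The part of the offset in these changes was not tested. The probe labelled MCM2 had a slope of 0.23 in that fit (limma adjusted p = 0.104), above the 0.21 of MCM4 probe 2, and the other 15 probes were called in both fits. CDC6 lies 69.9 kb from TOP2A in the file coordinates of chromosome 9, at chr9:25632282-25632341 and chr9:25562314-25562373, and whether this neighbourhood plays a part in their slope was not tested.

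**Figure D3:**
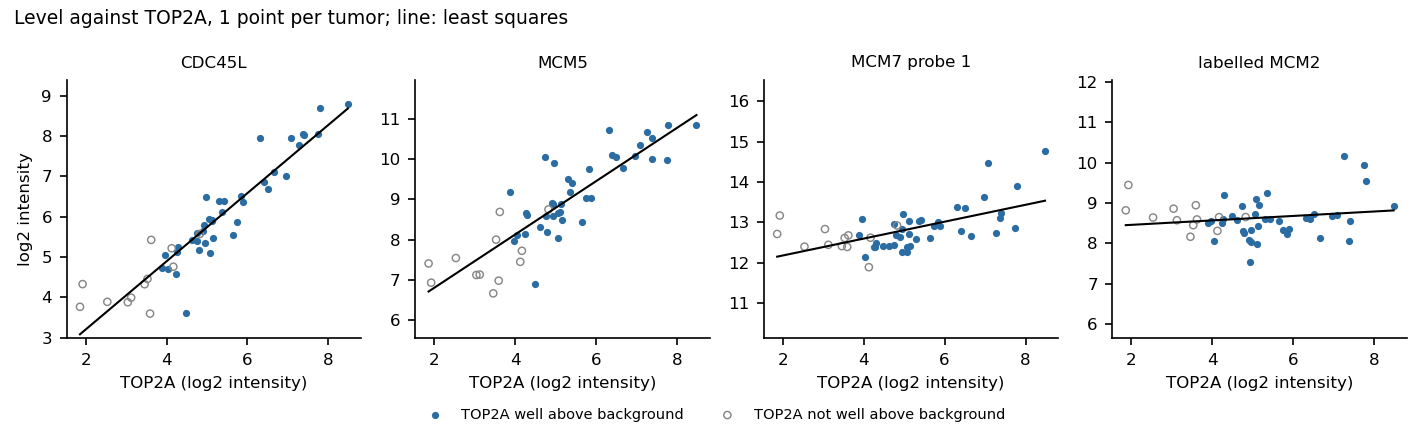
Log2 intensity of CDC45L, MCM5, MCM7 probe 1 and the probe labelled MCM2 (vertical axes, all of equal span) against that of TOP2A, with 1 point per tumor and a least-squares line. Open points are tumors in which TOP2A was not well above background. CDC45L rises by 0.85 per log2 unit of TOP2A and MCM7 by 0.21, while the probe labelled MCM2, which runs from 7.53 to 10.17, has a slope of 0.06.

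Some other genes of origin loading and firing rose with TOP2A and others did not pass the test. The list held 24 genes, of which 17 had a probe, and 6 rose, 0 fell and 11 were not called. Of all probes, 3.71% rose and 3.36% fell. ORC6 (slope 0.86 ± 0.07), MCM10, which helps to activate the helicase (0.80 ± 0.06), ORC1 (0.43 ± 0.07), GINS4 (0.39 ± 0.05), the CDT1 inhibitor GMNN (0.33 ± 0.03) and the loader CDT1 (0.21 ± 0.04) rose. Within the origin recognition complex, ORC2 had a slope of 0.00 ± 0.02, ORC3 -0.01 ± 0.02, ORC4 0.03 ± 0.03 and ORC5 -0.03 ± 0.04, and limma adjusted p for these 4 genes was between 0.679 and 0.993. With normexp the slopes were 1.02 for MCM10, 0.98 for ORC1, 0.84 for GINS4, 0.81 for GMNN, 0.71 for ORC6 and 0.58 for CDT1, so the order of these genes also changed. ORC1 and ORC6 were called in all 10 alternative fits at this threshold and ORC2 to ORC5 in 0 of them. In between lay DBF4 (0.12 ± 0.04, limma adjusted p = 0.0196), GINS1 (0.11 ± 0.05, limma adjusted p = 0.0868) and CDC7 (0.11 ± 0.05, limma adjusted p = 0.113). These were called in 4, 1 and 2 of the 10 alternative fits. The count of risers was 8 with normexp and 9 in the 39 tumors with TOP2A well above background. MCM8 (-0.06 ± 0.03) and MCM9 (-0.10 ± 0.06), relatives of the ring genes that act in repair, were not called. By r with the mean of the 9 genes, MCM10 (0.92) and ORC6 (0.90) were the highest of the list, and MCM9 (-0.15) and MCM8 (-0.06) the lowest.

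**Figure D4:**
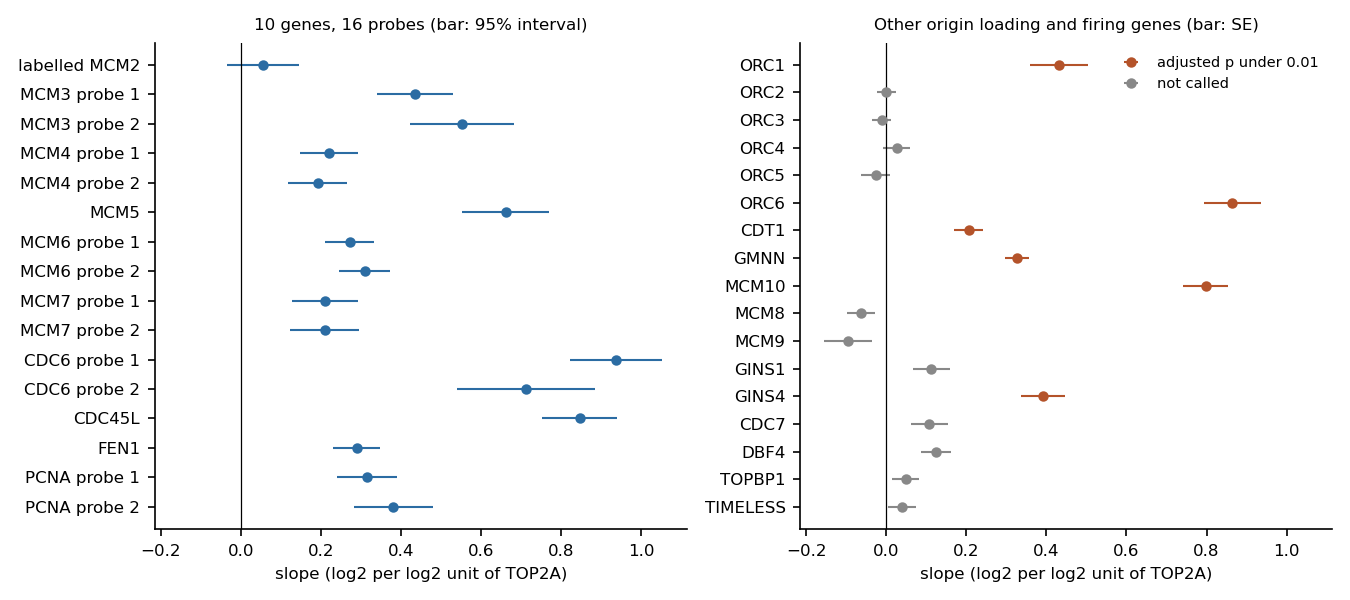
Slope on TOP2A (horizontal axes, log2 per log2 unit of TOP2A, n = 51 tumors) of the 16 probes with 95% intervals (left) and of 17 other origin loading and firing genes with SE (right). The slopes plotted are those with the processed signals, from 0.06 for the probe labelled MCM2 to 0.94 for CDC6 probe 1 on the left, and their order changed with normexp. On the right ORC2 to ORC5 lie between -0.03 and 0.03.

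Among 24 measured genes of the replication fork, 7 rose with TOP2A, 0 fell and 17 were not called, against 3.71% of all probes rising and 3.36% falling. These 7 were POLE, POLA2, POLD1, RFC3, RFC4, CHAF1A and CHAF1B, which are polymerase, clamp loader and chromatin assembly genes. With normexp 10 genes of this list rose. POLE, the catalytic subunit of the leading-strand polymerase, had a slope of 0.49 ± 0.04 and the highest r with the mean of the 9 genes (0.95), followed by POLA2 (0.88). RFC1 (-0.24) and POLE4 (-0.13) had the lowest. By comparison, 9 of 10 tested mitosis genes rose, with a median slope of 0.77, and CENPE, well above background on 0 arrays, was the exception. In this list CCNA2 and TTK (both 0.91) had the highest r with the mean of the 9 genes, and CENPE (0.03) and AURKB (0.75) the lowest. Lists differ in size and in which of their genes had a probe, so these counts describe the array's content.

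Markers of other cells also moved with TOP2A. All 4 measured neutrophil markers rose, against 3.71% of all probes rising and 3.36% falling. Their slopes were 1.12 ± 0.25 for S100A9, 1.05 ± 0.24 for S100A8, 0.54 ± 0.13 for CSF3R and 0.53 ± 0.10 for IL8RB. The log2 of their summed intensity ran from 8.42 to 18.55 over the tumors, and its r with the mean of the 9 genes was 0.45. With the 39 tumors in which TOP2A was well above background, 2 of these 4 and 15 of the 16 probes were called. Among 8 fibroblast markers, 2 fell, DCN (-0.15 ± 0.04) and FBLN1 (-0.28 ± 0.07), and their summed intensity ran from 17.12 to 19.68. Among 8 macrophage markers C1QA fell (-0.30 ± 0.08), with a sum from 12.86 to 16.03. By r with the mean of the 9 genes, IL8RB (0.63) and CSF3R (0.48) were the highest neutrophil markers and S100A8 (0.43) and S100A9 (0.45) the lowest, PDGFRB (-0.04) and COL1A1 (-0.16) the highest fibroblast markers and DCN (-0.61) and FBLN1 (-0.55) the lowest, and CD14 (0.41) and MSR1 (0.04) the highest macrophage markers and C1QA (-0.53) and CSF1R (-0.52) the lowest. Of 26 measured markers of T cells, B cells, keratinocytes, endothelium, muscle and fat, 0 were called. Beside the shares of all probes, 0 calls among 26 markers say little about these cells, as does the single macrophage call. The part of these cells in the slopes of the replication genes was not tested.

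Levels of the replication genes showed no slope on KIT, the receptor that mast cells depend on, that passed the test. KIT ran from 9.11 to 15.04 (median 13.31, SD 1.04, n = 51) and was well above background in all tumors, as were the other 5 measured mast cell markers MS4A2, FCER1A, FCER1G, CMA1 and SRGN. In the limma slopes on KIT, 7% of 43600 probes were called in either direction and 0 of the 16 probes were. The slopes of the 16 ran from -0.23 for CDC6 probe 2 (95% interval -0.61 to 0.14) to 0.04 for MCM4 probe 1 (95% interval -0.10 to 0.17), the smallest adjusted p being 0.172 and the smallest unadjusted p 0.057, for PCNA probe 2. Pearson r of the 10 genes with KIT ran from -0.25 for PCNA to 0.07 for MCM4, and the smallest permutation p was 0.077. Of the mast cell markers, 0 of 6 were called for a slope on TOP2A, against 3.71% of all probes rising and 3.36% falling. The slope of FCER1A was -0.19 ± 0.06 (limma adjusted p = 0.0165). The r of their summed intensity with the mean of the 9 genes was -0.04. Singly, SRGN (0.44) and MS4A2 (0.04) had the highest r with that mean and FCER1A (-0.32) and KIT (-0.12) the lowest.

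Likeness to the mean z score of all 10 genes is described by Pearson r over 51 tumors, with no test, among probes well above background on at least 26 arrays. Of the 10 highest, 9 were POLE (0.94), GSG2 (0.92), PLK4 (0.91), RRM2 (0.91), MCM10 (0.91), NDC80 (0.91), FANCI (0.90), UHRF1 (0.90) and KIFC1 (0.90). RRM2 encodes a subunit of ribonucleotide reductase, PLK4 the kinase of centriole duplication, and NDC80 a kinetochore protein. The 5 lowest were GSN (-0.79), PLXDC1 (-0.78), WISP2 (-0.78), SEPP1 (-0.77) and ANGPTL1 (-0.76). GSN severs actin filaments and SEPP1 carries selenium in plasma. Across 29903 probes the median r with the mean of the 9 genes was -0.02, 4.83% were above 0.5 and 0.545% above 0.8. Set against the mean of the other genes described as named, CDC6 probe 1 and CDC45L each reached an r of 0.94, which 0.01% of these probes exceeded, and MCM7 probe 1 reached 0.68, which 1.19% exceeded. The probe labelled MCM2 reached 0.27, which 17% of probes exceeded.

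Between female and male dogs, no probe of the 10 genes passed the threshold. In the limma comparison of 30 female with 19 male dogs, 0.0252% of 43603 probes passed an adjusted p of 0.01 with a change of at least 2-fold, and 0 of the 16 probes did. All 16 estimates of female minus male were below 0, from -0.10 for the probe labelled MCM2 to -1.27 for CDC6 probe 1, with a median of -0.48. Over all probes 52.6% of estimates were below 0, with a median of -0.01. At an unadjusted p under 0.05, 15 of the 16 were lower in females, against 4.3% of all probes. With normexp background correction the differences of some probes shrank. They were -0.43 for CDC6 probe 1, -0.15 for CDC6 probe 2, -0.13 for MCM3 probe 2, -0.19 for MCM4 probe 2, -0.45 for MCM3 probe 1 and -0.52 for CDC45L. Other probes changed less. Over the 9 alternative fits the weakest difference was -0.40 for MCM6 probe 1, -0.31 for MCM7 probe 1, -0.33 for FEN1 and -0.41 for PCNA probe 1. Their main estimates were -0.40, -0.31, -0.36 and -0.42. CDC6 probe 1 was not well above background in 19 of the 51 tumors. The 16 probes are correlated and are not 16 independent observations. The smallest adjusted p was 0.375, for MCM3 probe 1.

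MCM3 probe 1 ran from 5.42 to 7.76 in females (median 6.43, mean 6.49, SD 0.63, n = 30) and from 5.61 to 8.88 in males (median 7.36, mean 7.30, SD 0.88, n = 19). The groups overlapped, with 6 males above the highest female and 3 females below the lowest male. The difference of -0.80 (95% interval -1.23 to -0.37, limma unadjusted p = 0.000457, adjusted p = 0.375) is 1.74-fold. MCM6 probe 2 ran from 9.92 to 11.44 in females (median 10.44) and from 10.07 to 12.38 in males (median 11.04), with a difference of -0.54 (95% interval -0.84 to -0.24, limma adjusted p = 0.507). CDC6 probe 1 ran from 2.06 to 6.79 in females (median 4.24) and from 2.29 to 8.37 in males (median 5.42), a difference of -1.27 (95% interval -2.09 to -0.44, limma adjusted p = 0.791). CDC45L differed by -1.08 (95% interval -1.82 to -0.33, limma adjusted p = 0.791) and MCM5 by -0.79 (95% interval -1.42 to -0.16, limma adjusted p = 0.791). In PCNA the highest tumor was that of a female, T57.

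The sexes were not spread evenly over the scan sessions. The 51 arrays were scanned in 9 sessions, of which 7 held both sexes, 1 held 1 male and 1 held 6 males, no female and a dog of unlabelled sex. The median of the mean z score of the 9 genes in the session without females was 0.46, against -0.53 to -0.18 in the 5 sessions of 7 or 8 arrays with both sexes. With scan session as a block, MCM3 probe 1 differed by -0.79 (95% interval -1.33 to -0.25) and CDC6 probe 1 by -1.33 (95% interval -2.39 to -0.26). In that fit 15 of the 16 probes were lower in females, 11 of them at an unadjusted p under 0.05, and the smallest limma adjusted p was 0.797. With slide as a fixed block, MCM3 probe 1 differed by -0.98 and CDC6 probe 1 by -1.69. All 16 probes were then lower in females, 14 of them at an unadjusted p under 0.05, and the smallest limma adjusted p was 0.248. The shares of all probes that were lower in these 2 block fits are not given here. Within the 7 sessions that held both sexes, the mean was lower in females in 5 for 14 of the 16 probes and in 4 for the probe labelled MCM2 and PCNA probe 2. Some of these sessions set 6 or 7 females against 1 male, and others 1 female against 1 male. A mean there can be the value of 1 dog, so these counts are a description only. Whether neutering, breed or class differed between the sexes was not tested.

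**Figure D5:**
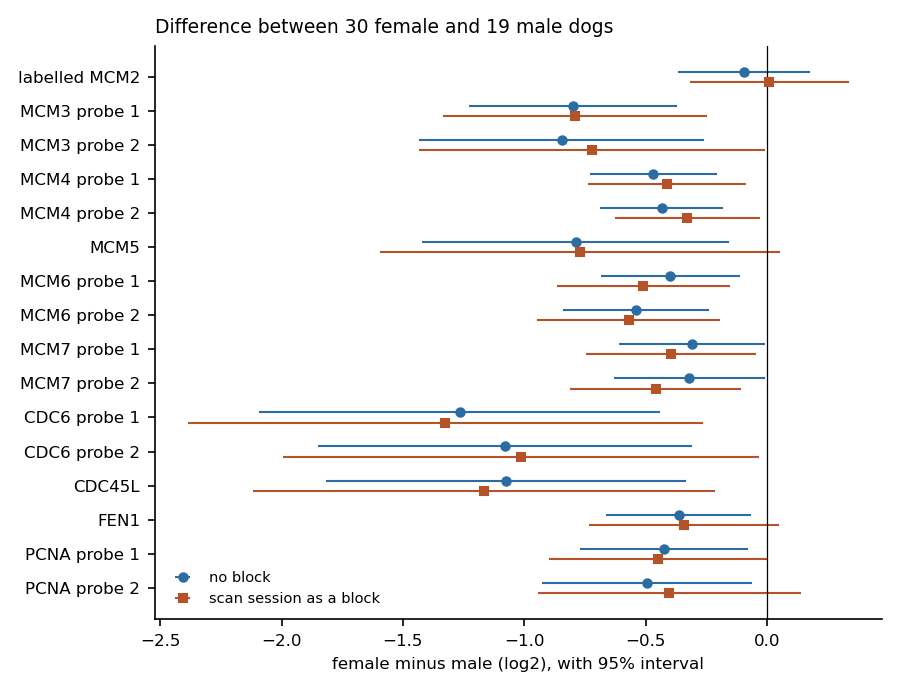
Difference between 30 female and 19 male dogs (horizontal axis, log2, female minus male) for each of the 16 probes with 95% intervals, without a block (circles) and with scan session as a block (squares). All circles lie below 0, from -0.10 to -1.27, as do 52.6% of all probes on the array, and none passed the threshold adjusted over all probes.

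No probe of the 10 genes passed the test for a slope on age. In 49 dogs, 0% of 43603 probes had a limma adjusted p under 0.01 for a slope on age, and 2.43% had an unadjusted p under 0.05, against 0 of the 16. Slopes of the 16 probes ran from -0.02 per year for MCM3 probe 2 to 0.06 per year for CDC45L, and the smallest unadjusted p was 0.129.

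Between breeds, 0 of the 16 probes were called in any pair. Of all probes, 0.055% were called between Boxers and Labrador Retrievers, 0.0115% between Boxers and Crossbred dogs and 0.0115% between Labrador Retrievers and Crossbred dogs, with the limma thresholds used for sex. MCM5 ran from 6.94 to 10.53 in 9 Boxers (median 9.41), from 7.14 to 10.73 in 9 Labrador Retrievers (median 8.65) and from 6.90 to 10.66 in 14 Crossbred dogs (median 8.25). These ranges overlapped almost entirely. Differences of the 16 probes ran from 0.03 to 0.52 for Boxers minus Labrador Retrievers, from 0.04 to 0.64 for Boxers minus Crossbred dogs, and from -0.26 to 0.29 for Labrador Retrievers minus Crossbred dogs. The smallest unadjusted p over the 3 pairs was 0.117, for Boxers minus Crossbred dogs, and the smallest adjusted p was 1 in each. MCM7 probe 1 ran from 12.68 to 13.23 in Boxers and, apart from T73 at 14.48, from 12.40 to 13.38 in Labrador Retrievers.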

How the data were processed

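Total RNA of 51 tumors was hybridized to 1-color Agilent Canine V2 arrays. The authors extracted Cy3 intensity with Feature Extraction 9.5.1, and the deposited processed signal is background subtracted and detrended within each array. A second deposited table holds the authors' quantile-normalized intensity, blank where a spot was not found. Here log2 processed signals of 43803 non-control spots were quantile-normalized, outlier-flagged spots were left out and spots of a probe were averaged (R 4.3.3). Comparisons used limma 3.58.1 over 43603 probes with Benjamini-Hochberg adjustment, called at an adjusted p under 0.01 and, between groups, a 2-fold change. For correlations and gene lists the brightest probe stood for a gene. Named genes were all 16 probes, the 10 genes with the highest and 5 with the lowest r to the mean of the 10 genes, and the 2 highest and 2 lowest of each gene list. Of the 10 highest, 1 gene is not reported here. Members and lists were chosen with earlier results of these data known. Each dog gave 1 tumor, and the number of arrays limits precision. The fits were tested on simulated data with independent probes and no slide or session effects. That test does not cover such effects, correlated probes or changes in dim probes. Alternatives were other normalizations, filters, covariates and blocks for slide (15) and scan session (9), the last added after seeing the data.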

Additional observations from a re-analysis of the deposited data

Results flagged for a closer look

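MCM7 probe 1 in case T73, a Labrador Retriever, stood apart from the other 8 Labrador Retriever tumors. Its level was 14.48, and the others ran from 12.40 to 13.38. The gap to the next tumor was 0.53 of the range of this breed, above Dixon's 95% critical value for 9 samples. In all, 32 such checks were made, 16 probes in each of the 2 breeds with 9 tumors, and chance flags about 1 in 20. MCM7 probe 2, which shares 56 bases with probe 1, was at 14.40 in the same tumor and was not past the limit. The cause was not tested.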

How the results depend on the processing

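The 15 probes that rose with TOP2A were counted as 15 in the other fits, 14 where dim probes were left out, and 5 of 16 (366 of all probes) where a slope of at least 0.5 was also asked. TOP2A was already the anchor, so it was not run as an alternative to MKI67. No probe of the 10 genes was called by sex, age, breed or KIT under any alternative run. For sex, the count over all probes was 7 with normexp, 7 without dim probes and 27 at an adjusted p under 0.05, and the difference of the probe labelled MCM2 turned to 0.0090 with scan session as a block. For Boxers minus Labrador Retrievers it was 15 with normexp, the authors' table or a random slide block, 0 with a fixed slide block, 6 with scan session and 37 at 0.05. For Boxers minus Crossbred dogs it was 2 with normexp or the authors' table, 0 with a fixed slide or session block and 11 at 0.05. For Labrador Retrievers minus Crossbred dogs it was 1 with normexp, 3 with a fixed slide block and 10 at 0.05. The KIT count over all probes was 1596 with a fixed slide block. The median r of the probe labelled MCM2 was 0.089 without the 2 farthest tumors of each pair, and it was 0.13 to 0.26 in the other 6 settings. Of the 10 genes most like the members, 5 were shared by Spearman's rho. In the rest of the alternatives the counts stayed within 1.5 times. The cause of these changes was not tested. Low signal limits CDC6, CDC45L and MCM3 probe 2. No paired analysis was possible because the labels give no replicate numbers that groups share.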

Other observations

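The labels give no sex for 2 tumors. In case T132, which also has no breed or age, MCM5 was at 10.09, MCM4 probe 1 at 9.90 and CDC45L at 6.85, and it was 11th of 51 by the mean z score of the 9 genes. In case T53, a Cocker Spaniel, MCM5 was at 8.90 and CDC45L at 5.80, it was 26th of 51, and the probe labelled MCM2 had its lowest value, 7.53.

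The tumors T57 and T114, in which the probe labelled MCM2 was highest (10.17 and 9.95), were also the highest for PCNA probe 2 (11.70 and 11.02) and were the next lowest of 51 for KIT (11.00 and 10.99) after T77 (9.11). This pattern was singled out after the values were seen.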
